A study of Wolfiporia cocos with 12 samples.

Results

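Wolfiporia cocos strain MD-104, a basidiomycete that causes brown rot, was compared between cultures fed ground lodgepole pine (Pinus contorta) wood and cultures fed glucose. The comparison used 6 of the 12 libraries of the series, 3 per carbon source. Of the 12746 gene models in the deposited table, the 10112 with a mean of at least 1 RPKM (reads per kilobase of model, scaled to library size) on pine or on glucose were tested. Both groups were triplicate cultures of 250 ml, inoculated with mycelium scraped from agar and harvested after 5 days on a rotary shaker. The pine cultures held basal salts with 0.5% (w/v) milled pine as the only carbon source. The glucose cultures held a defined medium with glucose, so the groups differ in the medium as well as in the carbon source. Aspen wood (Populus grandidentata, same salts and amount) and Avicel, a microcrystalline cellulose in the defined medium, were the remaining media, and their values are given beside some genes. The series concerns gene expression in the early attack of this fungus on wood.

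Brown-rot fungi remove cellulose and hemicellulose from wood and leave most of the lignin behind in modified form. The attack is thought to begin with small reactive oxygen species, formed outside the hypha when hydrogen peroxide meets reduced iron, which open the wall to secreted hydrolases. Softwoods such as pine carry galactoglucomannan as their main hemicellulose, pectin in the middle lamella and pit membranes, and a resin rich in terpenoids.

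In units of 1e6 reads, the glucose libraries were estimated to hold 17.3 to 21.2 and the pine libraries 17.3 to 22.3, from the spacing of low RPKM values. The common scale of these depths rests on a low match score (0.136, against a median of -0.012 over the depths tried). Multiples of the true depth can also score high, and the smallest well-scoring depth was taken, so the depths are uncertain. At these depths 3 reads on 1 kb of model amount to 0.135 to 0.173 RPKM, which covers counting error only. The first principal component of these 6 libraries held 72.9% of the variance and separated pine from glucose. The second held 13.4% and spread the pine libraries, with replicate 2 at -30.56 and replicates 1 and 3 at 9.15 and 27.06. Pairwise correlations of log2 values were 0.959 to 0.979 among pine libraries and 0.979 to 0.983 among glucose libraries. Glucose and Avicel libraries ran on lane 1 of the sequencer and both wood libraries on lane 2, so lane, medium and carbon source cannot be told apart in pine against glucose. Strand-specific counting is not stated in the labels, so models that overlap a neighbour may share reads with it. Among those described below, these are 139155 and 123970 (which overlap each other), 136014, 106510, 156377, 135575, 103638, 28342, 146767, 102645, 74282, 74362, 133057, 136784 and 26576.

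A model was called when its adjusted p from limma was under 0.05 and its fold was at least 2. On pine 571 models were called higher (5.65% of those tested) and 632 lower (6.25%), together 11.9%. Pine replicate 2 was the lowest pine library in 423 of the 632 models called lower (66.9%), in 30.3% of those called higher and in 46.2% of all tested models. Without it 567 were called higher and 506 lower. Of the 1203 called models, 235 rose and 168 fell at least 4-fold, and 45 rose and 21 fell at least 16-fold. Over all tested models the log2 changes had a median of -0.14, and list medians below are to be read against that value. Counts of called list members are likewise to be read against the shares of 5.65% higher and 6.25% lower. The 3 pine values and the 3 glucose values did not overlap in 1192 of the 1203 called models, against 46.4% of all tested models. Groups that do not overlap, where stated below for called models, therefore add no support to the call. The models called higher took 4.0% to 4.5% of all RPKM in the glucose libraries and 21.6% to 22.6% in the pine libraries. Those called lower went from between 16.9% and 19.3% on glucose to between 4.0% and 5.0% on pine. A signal peptide probability was listed for 23.1% of the models called higher, 9.8% of those called lower and 9.0% of all tested models.

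**Figure D1:**
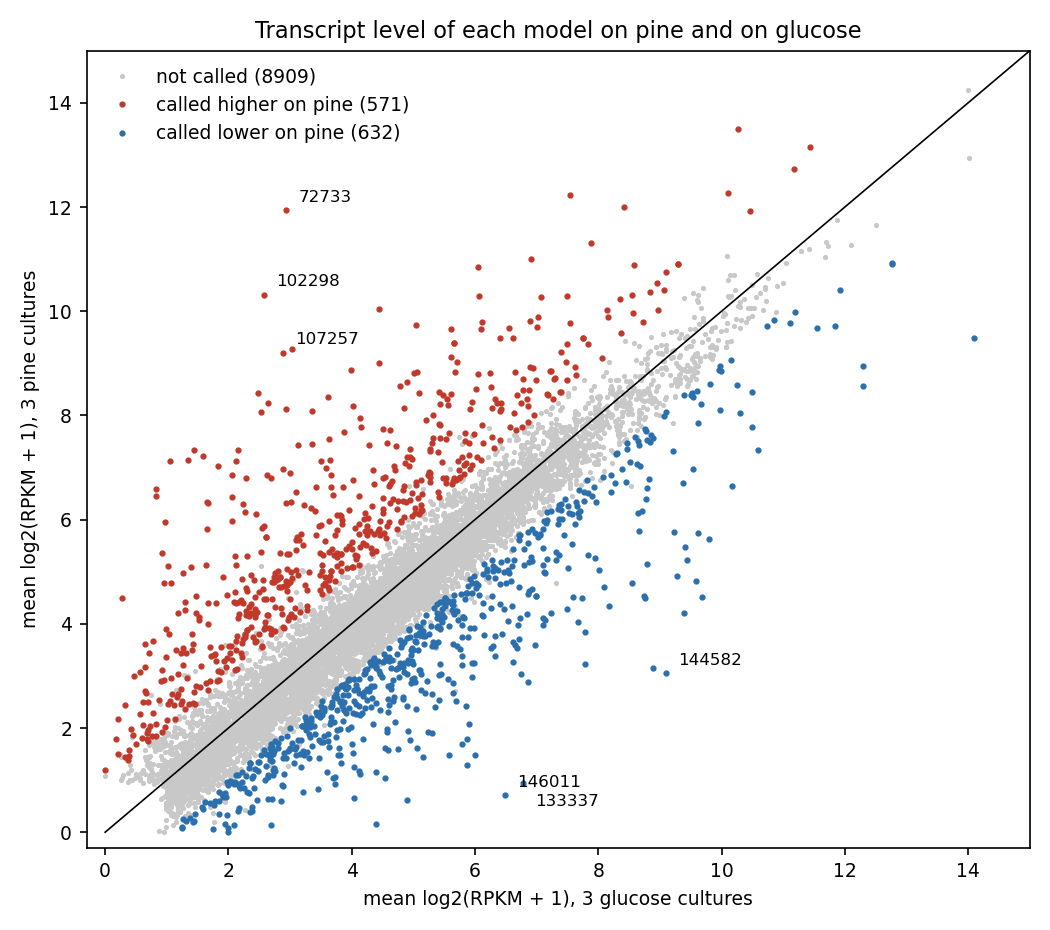
Mean log2(RPKM + 1) of each tested model over the 3 glucose cultures (horizontal) and the 3 pine cultures (vertical), with the line of equal level. Red points (571) were called higher on pine and blue points (632) lower, and the 3 models with the largest rise and the deepest fall carry their protein ID.

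The model with the largest rise was 72733, a cerato-platanin, one of the small cysteine-rich proteins that fungi secrete in quantity. It stood at 5.24, 4.69 and 11.7 RPKM on glucose and at 3146, 3863 and 5020 RPKM on pine. Its log2 change was 9.0 (SE 0.35, adjusted p = 2.25e-08), and on Avicel, sequenced on the same lane as glucose, it stood at 45.5 to 97.4 RPKM. The deepest fall belonged to 144582, a model with no family label, at 502, 745 and 432 RPKM on glucose and 10.1, 3.31 and 10.8 RPKM on pine (log2 change -6.05, SE 0.42, adjusted p = 2.22e-06). Both models kept the groups far apart.

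Sugar transporters bring sugars released from the wall into the hypha, and 16 of the 35 tested rose while none fell (45.7% against 5.65% of all models; median log2 change 0.39). Transporter 102298 stood at 5.40, 4.95 and 4.53 RPKM on glucose and at 1175, 1684 and 1055 RPKM on pine. All pine values lay far above all glucose values, with a log2 change of 7.75 (SE 0.22, adjusted p = 4.12e-09). A second carrier, 107257, labelled a general substrate transporter, went from 7.07, 7.22 and 5.04 RPKM to 432, 917 and 517 RPKM (log2 change 6.32, SE 0.28). Transporter 25027 rose by a log2 change of 5.18 (SE 0.29) and 137336, already at 41.3 to 102 RPKM on glucose, by 3.69 (SE 0.30). The summed level of the 35 transporters was 1158 to 1217 RPKM on glucose and 6545 to 8662 RPKM on pine.

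The wider major facilitator superfamily has members that carry sugars, drugs, acids and other small molecules. Of 138 tested, 31 rose (22.5% against 5.65% of all models). The 12 that fell (7 with a pseudocount of 5) made up 8.7%, near the 6.25% of all models. Carrier 127030 rose most among the risers, from 4.20 to 6.18 RPKM on glucose to 287 to 331 RPKM on pine (log2 change 5.61, SE 0.20). Carrier 167613 fell most, from 221, 206 and 207 RPKM to 19, 12 and 43.5 RPKM (log2 change -3.23, SE 0.36). Of 46 transporters of nitrogen compounds, 13 were higher, 2 were lower and 31 were not called (median 0.23). The lower count was 1 without glucose replicate 1 or pine replicate 2, with a pseudocount of 5 and after median centring or quantile normalization. Among them, 7 of the 15 tested members of the oligopeptide transporter superfamily rose and none fell. Oligopeptide transporter 125778 stood at 52.6, 38.6 and 53.5 RPKM on glucose and at 754, 804 and 876 RPKM on pine (log2 change 4.06, SE 0.17), and 123017 rose by 4.37 (SE 0.33). Amino acid permease 105323 rose by a log2 change of 4.06 (SE 0.35), whereas permease 141085 fell by 1.78 on the log2 scale (SE 0.43).

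Of 112 models labelled as glycoside hydrolases, 35 rose (31.2%) and 5 fell, with a median log2 change of 0.31. The families did not move alike. Among cellulases and wall-loosening proteins, which cut or swell the cellulose fibre, 5 of 28 rose and 3 fell (6 with a pseudocount of 0.1), and the median was -0.08, a sign that turned under some settings (-0.2 to 0.08). Family 5 (GH5), which holds endoglucanases and mannanases, went both ways. Model 139561 stood at 5.76, 5.62 and 3.32 RPKM on glucose and at 312, 316 and 192 RPKM on pine (log2 change 5.53, SE 0.46, adjusted p = 6.59e-06). A second member, 106510, rose by a log2 change of 3.02 (SE 0.62) at a far lower level, 13.7 to 20.9 RPKM on pine. Members 135575 and 137702 fell by 1.3 (SE 0.20) and 1.52 (SE 0.20) on the log2 scale. For all 4 the groups did not overlap, as in 1192 of the 1203 called models.

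Model 24190, of family 12, a family of small endoglucanases, was higher on glucose, at 229, 309 and 117 RPKM against 30.3, 12.9 and 9.04 RPKM on pine. Its log2 change of -3.64 (SE 1.04) passed the limma test (adjusted p = 0.0235). Without glucose replicate 1 or 2 or pine replicate 2 or 3 the adjusted p was 0.0664, 0.0723, 0.0659 or 0.0681. The log2 change was then between -3.29 and -3.55. The SE draws on all 4 groups, and the Avicel cultures stood at 38.5, 537 and 1809 RPKM. With only the groups compared in the fit the call of 24190 held, and with no filter it was lost. Model 156377, a Barwin-related endoglucanase and the second most abundant model on glucose, narrowly missed the limma threshold (log2 change -1.08, SE 0.37, adjusted p = 0.0501). It stood at 15554, 22332 and 13233 RPKM on glucose and 6978, 7402 and 9443 RPKM on pine. It was called lower with a pseudocount of 0.1 or 5, a filter at 5 RPKM, no intensity trend, a robust prior or without aspen replicate 2. It sets the summed level of the list, 15016 to 24457 RPKM on glucose and 8942 to 11090 RPKM on pine. Another Barwin-related model, 131156, rose by a log2 change of 2.24 (SE 0.62), with pine values from 10.5 to 95.2 RPKM. That call was lost without glucose replicate 2 (adjusted p = 0.0549) or 3 (0.0602).

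The beta-glucosidase families GH1 and GH3, which split cellobiose and other short beta-linked sugars, rose together. Of 9 tested, 7 were called higher and none lower, all 9 had a positive log2 change, and the median was 1.81. GH3 model 137577 stood at 3.95, 4.61 and 4.91 RPKM on glucose and at 70.8, 99.2 and 43.8 RPKM on pine (log2 change 3.65, SE 0.42). GH3 model 23559 rose from 18.6 to 28.2 RPKM to 85.8 to 107 RPKM, and the GH1 model 78411 from 2.99 to 4.34 RPKM to 14.1 to 20.7 RPKM. Their log2 changes were 2.04 (SE 0.35) and 1.96 (SE 0.36). The groups did not overlap in any of these 3, which holds for nearly all called models.

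Hemicellulases rose in 7 of 18 tested models and fell in none, with a median of 0.93. The largest rise was that of 164484, of the xylanase family GH10, at 35.7, 36.4 and 25.2 RPKM on glucose and 946, 1510 and 434 RPKM on pine (log2 change 4.69, SE 0.79, adjusted p = 0.00121). All pine values lay above all glucose values, and the Avicel cultures spread from 132 to 1701 RPKM. The second GH10 model, 103638, rose by a log2 change of 2.34 (SE 0.73, adjusted p = 0.0345). Its call was lost without any 1 glucose library or without pine replicate 1 or 2, with an adjusted p of 0.0663 to 0.122. With no filter it was lost as well, but it held with only the groups compared in the fit. The Avicel cultures of this model spread from 12.5 to 146 RPKM. The GH2 model 24785, of a family of beta-galactosidases and beta-mannosidases, rose evenly from 31.3, 34.6 and 24.1 RPKM to 170, 172 and 149 RPKM (log2 change 2.42, SE 0.19).

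Pectin enzymes rose in a large share of their models. Of 17 tested, 9 rose (52.9%) and 1 fell, and the median was 1.20. In family GH28, whose members are polygalacturonases that cut the pectin backbone, 6 of 9 rose and none fell. Model 128405 stood at 2.81, 3.29 and 1.78 RPKM on glucose and at 120, 226 and 81 RPKM on pine (log2 change 5.20, SE 0.40, adjusted p = 3.93e-06), against 7.46 to 10.9 RPKM on Avicel. Model 125762 rose by 2.99 (SE 0.44) and 92023 by 1.58 (SE 0.17). Pectinesterase 165643, which removes methyl groups from pectin, rose from 1.27, 0.708 and 0.731 RPKM to 44, 56.1 and 26 RPKM (log2 change 4.45, SE 0.30). The other pectinesterase named here, 28342, went the opposite way, from 72, 71.2 and 165 RPKM to 26.5, 24.8 and 31.4 RPKM (log2 change -1.75, SE 0.44).

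**Figure D2:**
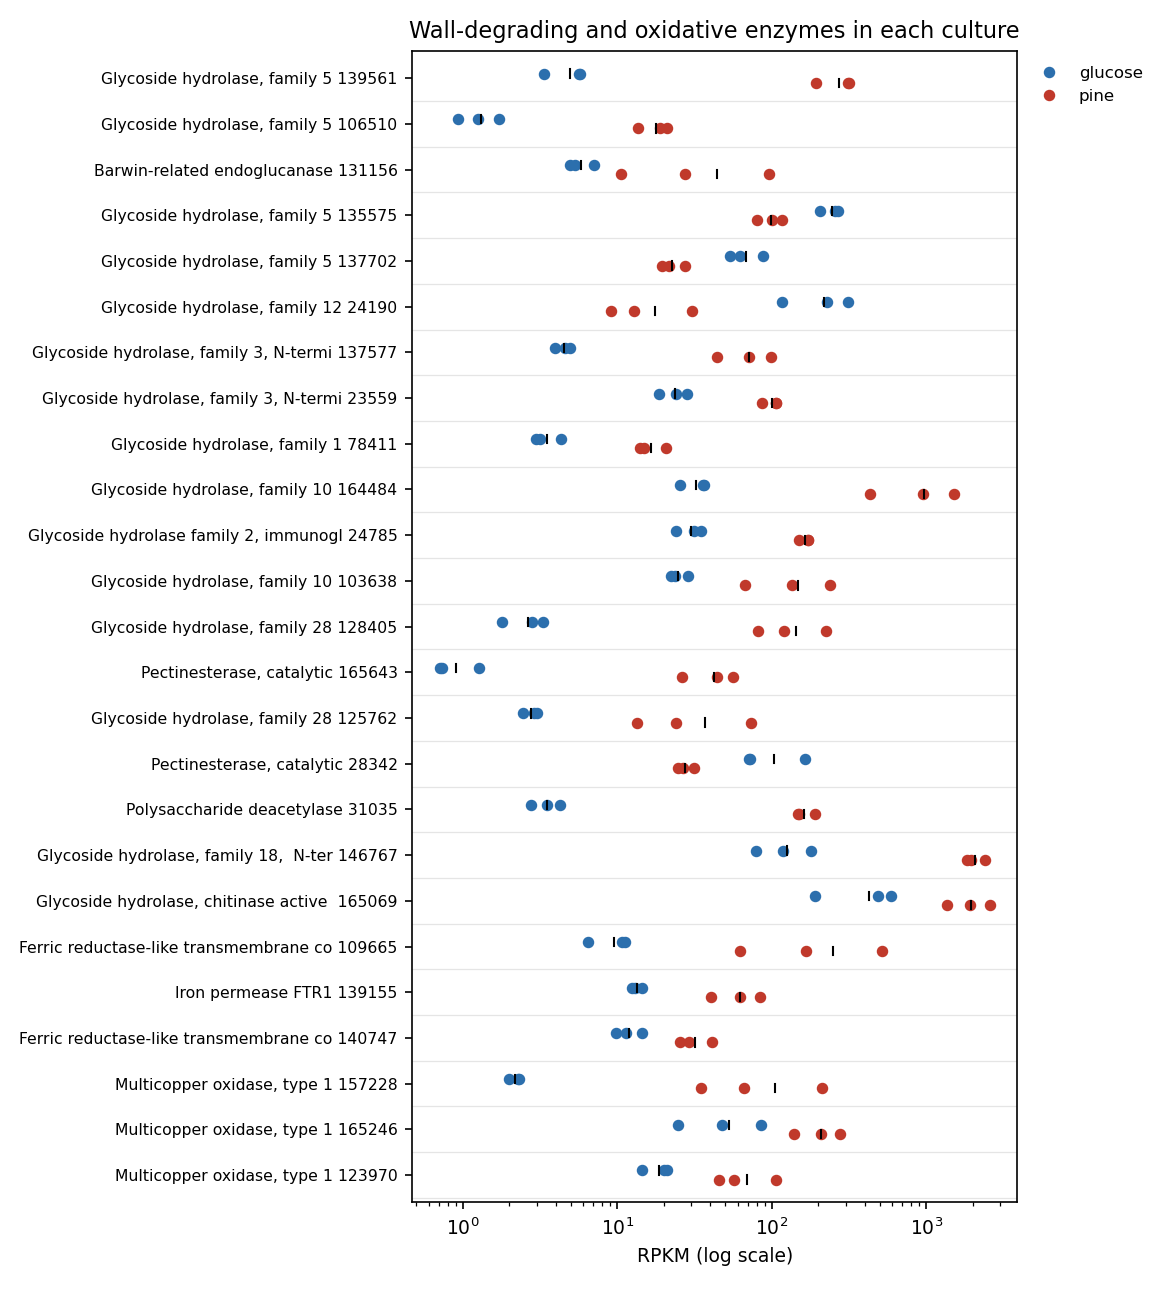
RPKM (log axis) of called wall-degrading and oxidative enzymes, 1 row per model with its protein ID, for the 3 glucose cultures (blue) and the 3 pine cultures (red). Black ticks mark group means. GH10 model 164484 reaches 434 to 1510 RPKM on pine, while GH12 model 24190 and pectinesterase 28342 lie lower on pine.

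Models for the oxidative side of the attack were few, and several rose. Ferric reductases reduce iron at the cell surface, and 3 of the 5 tested models of the iron list rose. Ferric reductase 109665 stood at 10.7, 11.2 and 6.49 RPKM on glucose and at 166, 61.8 and 518 RPKM on pine, so the pine cultures lay above glucose but spread widely among themselves (log2 change 4.11, SE 0.92, adjusted p = 0.00698). Ferric reductase 140747 rose by a log2 change of 1.34 (SE 0.19). The other members, 138071 and 136014, were not called, with log2 changes of 0.28 (SE 0.20) and -0.47 (SE 0.16). The iron permease 139155, of the FTR1 family that imports iron after its oxidation by a ferroxidase, rose from 12.5 to 14.5 RPKM to 40.4 to 83.8 RPKM (log2 change 2.08, SE 0.38). Its groups did not overlap.

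Multicopper oxidases include laccases, which oxidise phenols, and ferroxidases. Of 5 tested, 3 rose. Model 157228 stood at 1.99, 2.29 and 2.26 RPKM on glucose and at 66.0, 34.9 and 212 RPKM on pine (log2 change 4.66, SE 0.56, adjusted p = 0.000108), and at 1.38 to 2.27 RPKM on Avicel. It thus stood near its glucose level on the cellulose medium. Model 165246 rose by 2.08 (SE 0.55) and 123970 by 1.77 (SE 0.51). Without glucose replicate 3 their adjusted p was 0.0657 and 0.0785. The call of 165246 was also lost without pine replicate 3 (0.0516), and that of 123970 without glucose replicate 1 (0.0544) or pine replicate 1 (0.0836). Models 139080 and 84133 were not called (log2 change 0.86 and -0.19). A cupredoxin, 97131, a small copper protein of a separate label, rose from 64.9, 63.5 and 69.7 RPKM to 833, 1680 and 1425 RPKM (log2 change 4.23, SE 0.26).

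Oxidases that yield hydrogen peroxide showed a mixed picture, with 7 of 33 higher, 3 lower and a median of 0.13. The glucose-methanol-choline oxidoreductase 133604 rose from 0.481 to 0.672 RPKM to 6.16, 4.43 and 45.9 RPKM (log2 change 2.96, SE 0.70). The number of risers was 4 without glucose replicate 1 or 3, without pine replicate 1 or with no filter, and 3 with only the groups compared in the fit. Of the 2 models of family 61, now known as lytic polysaccharide monooxygenases, 134838 rose from 13.8, 8.91 and 12.5 RPKM to 42.8, 28.3 and 20.4 RPKM (log2 change 1.26, SE 0.28). Without pine replicate 1 its log2 change was 1.0 and it missed the fold. The other, 57339, stood at 0.435 to 1.43 RPKM in all 6 libraries and was not called.

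No peroxidase or chloroperoxidase was called higher by limma among 9 tested (2 higher and 3 lower at an unadjusted p under 0.05), but 1 was without glucose replicate 3 and after quantile normalization. Haem peroxidase 101311 and chloroperoxidase 127787 were called lower (adjusted p = 0.0432 and 0.0489). Leaving out 1 library ended each call in 9 of 12 cases, with an adjusted p of up to 0.134 and 0.169 (without pine replicate 2 and glucose replicate 2). Among 12 enzymes of oxalate and glyoxylate metabolism none was called higher by limma (1 at an unadjusted p under 0.05). The isocitrate lyase family model 92053 stood at 2520, 672 and 892 RPKM on glucose and at 223, 12.4 and 337 RPKM on pine (log2 change -3.51, SE 0.96). That call was lost without glucose replicate 1 (log2 change -2.95, adjusted p = 0.0778), with no filter and with only the groups compared in the fit. Antioxidant enzymes fell in 3 of 30 models (1 without glucose replicate 1) and rose in 1 (2 without glucose replicate 2 or 3 or pine replicate 3 and after median centring or quantile normalization, 0 with a pseudocount of 5). Catalase 84844, which breaks down hydrogen peroxide, went from 3143, 4069 and 2096 RPKM to 779, 808 and 855 RPKM (log2 change -1.88, SE 0.38). Its groups did not overlap.

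**Figure D3:**
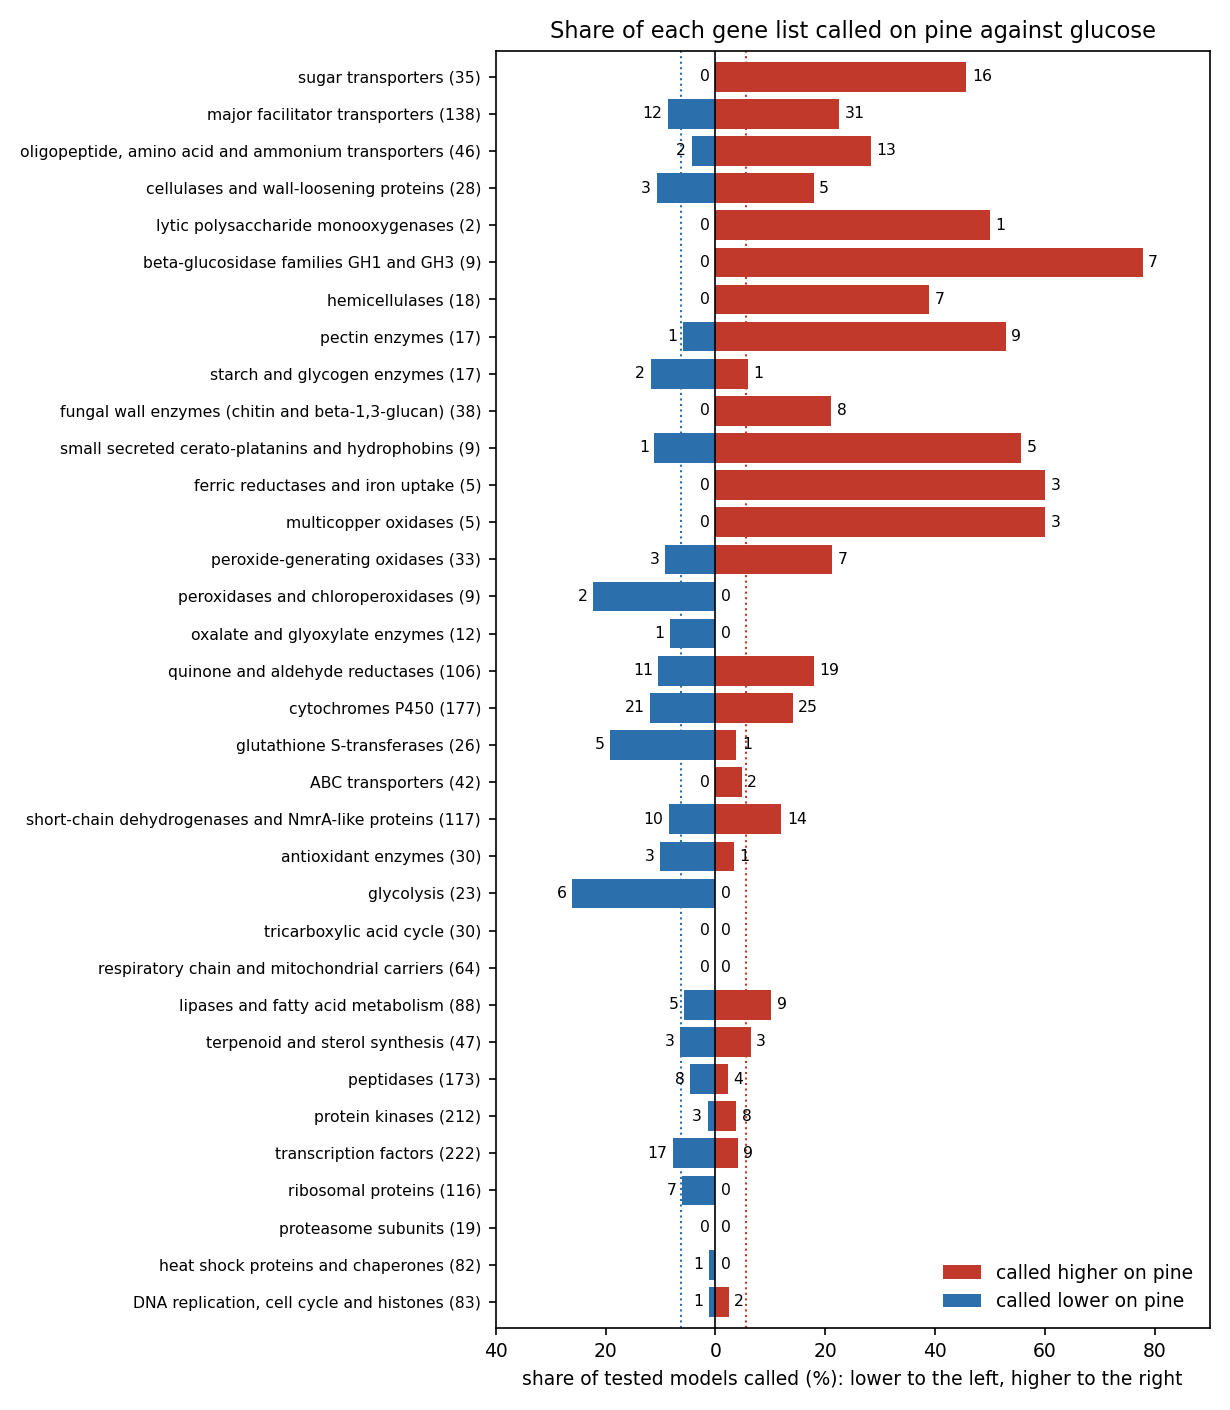
Share of the tested models of each gene list that were called on pine against glucose, with called models to the right (higher, red) and to the left (lower, blue). Numbers at the bars are called models, those in parentheses the tested members, and dotted lines the shares over all models (5.65% higher, 6.25% lower).

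Of 9 tested cerato-platanins, hydrophobins and WSC-domain models, proteins of the cell surface or secreted from it, 5 rose and 1 fell (2 without Avicel replicate 3, with a pseudocount of 0.1 or with only the groups compared). Cerato-platanin 101791 stood at 23.2, 22.4 and 17.4 RPKM on glucose and at 976, 275 and 4281 RPKM on pine (log2 change 5.59, SE 0.84), with pine replicate 2 lowest and replicate 3 highest. The WSC-domain model 106250 was even among cultures, at 3.96 to 5.81 RPKM on glucose and 300 to 388 RPKM on pine (log2 change 5.94, SE 0.19). Another cerato-platanin, 23042, fell from 534, 746 and 1037 RPKM to 188, 137 and 76.0 RPKM (log2 change -2.57, SE 0.39). Members of this family of secreted proteins thus moved in opposite directions on the same wood.

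The hyphal wall itself is made mainly of chitin and beta-1,3-glucan, and of 38 tested enzymes for these polymers 8 rose, none fell and 30 were not called (median 0.13). GH18 model 146767, of the chitinase family, stood at 179, 118 and 78.8 RPKM on glucose and at 1944, 2396 and 1833 RPKM on pine (log2 change 4.09, SE 0.25, adjusted p = 1.06e-06). It was also high on Avicel, at 1074 to 1313 RPKM. The chitinase-site model 165069 rose from 594, 486 and 190 RPKM to 1907, 1361 and 2574 RPKM (log2 change 2.31, SE 0.43). Polysaccharide deacetylase 31035, of a family that removes acetyl groups from chitin and xylan, rose by 5.19 (SE 0.19). The summed level of the 38 models was 4733 to 5819 RPKM on glucose and 12600 to 14822 RPKM on pine.

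Cytochromes P450 insert oxygen into lipophilic compounds, resin terpenoids and phenols among them, and the fungus has many of them. Of 177 tested, 25 rose (14.1%) and 21 fell (11.9%; 13 with a pseudocount of 5), and the median was 0.01. Rises reached higher than falls did, with log2 changes from -2.71 to 5.89. P450 24176 stood at 1.46, 2.13 and 1.61 RPKM on glucose and at 99.5, 138 and 296 RPKM on pine (log2 change 5.89, SE 0.51, adjusted p = 9.81e-06). Models 75851 and 90431 rose by 5.8 (SE 0.51) and 5.64 (SE 0.40). They lie 62 bases apart on scaffold 7 (1232403 to 1232660 and 1232723 to 1234356), with pine values of 95.5, 123 and 239 RPKM for the former and 117, 122 and 231 RPKM for the latter. Whether they are parts of a single gene was not tested. P450s 102645, 155400 and 72477 fell the most, by 2.71, 2.38 and 2.27 on the log2 scale (SE 0.22, 0.29 and 0.24).

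A stretch of scaffold 3, singled out after its values were seen, held 8 tested P450 models between positions 3449966 and 3505220, of which 4 rose. Neighbouring models 24175, 24176 and 24177 (3466665 to 3476193) rose by log2 changes of 4.08 (SE 0.52), 5.89 (SE 0.51) and 4.17 (SE 0.29). The fourth, 99035 (3483874 to 3486215), rose from 0.919, 0.771 and 0.634 RPKM to 47.8, 114 and 156 RPKM (log2 change 5.76, SE 0.47). Between them, P450 136921 stood at 3.43 to 5.06 RPKM on glucose and 4.38 to 5.81 RPKM on pine and was not called, nor was the protein kinase model 136922. P450s 150583, 68651 and 99038 at the ends of the stretch were not called either, with log2 changes of 0.29, -0.19 and -0.33. The rise was therefore uneven within the stretch.

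Other enzymes that handle reactive or foreign compounds moved both ways. Among quinone and aldehyde reductases, which include aldo/keto reductases and zinc-dependent alcohol dehydrogenases, 19 of 106 rose and 11 fell. Alcohol dehydrogenase 163585 rose from 1.40 to 1.95 RPKM to 22.7 to 41.7 RPKM (log2 change 3.69, SE 0.20). Aldo/keto reductase 28055 fell from 404, 496 and 426 RPKM to 48.3, 29.4 and 29 RPKM (log2 change -3.63, SE 0.20), and alcohol dehydrogenase 29355 fell by 3.93 (SE 0.55). Glutathione S-transferases, which attach glutathione to reactive compounds, fell in 5 of 26 models and rose in 1 (4 with a pseudocount of 0.1, 2 without glucose replicate 2 or after median centring, 3 after quantile normalization). Transferase 83420 went from 32.7, 17.6 and 40.5 RPKM to 0.685, 0.118 and 0.944 RPKM (log2 change -4.27, SE 0.37). The riser, 74362, spread from 8.06 to 74.4 RPKM on pine and lost its call without any 1 glucose library or without pine replicate 1 or 3, with an adjusted p of 0.0507 to 0.0802. Of 42 ABC transporters, 2 rose (1 without pine replicate 2) and none fell, with 109849 going from 23.3 to 37.3 RPKM to 221 to 348 RPKM.

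Short-chain dehydrogenases and NmrA-like proteins, a broad group of NAD(P)-binding enzymes, rose in 14 of 117 models and fell in 10, and with a pseudocount of 5 the number falling was 3. The glucose/ribitol dehydrogenase 167825 rose from 9.52 to 15.5 RPKM to 143 to 231 RPKM (log2 change 3.92, SE 0.28). The NmrA-like model 133337 fell from between 92.9 and 132 RPKM to 1.8, 0.490 and 0.731 RPKM (log2 change -5.83, SE 0.41, adjusted p = 2.41e-06). On Avicel it stood at 18 to 77.6 RPKM, between both.

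Glycolytic enzymes, which break glucose down to pyruvate, fell in 6 of 23 models (26.1% against 6.25% of all models) and rose in none, with a median of -0.56. The 6 carried the labels phosphofructokinase, phosphoglycerate mutase (2 models), enolase, pyruvate kinase and glyceraldehyde 3-phosphate dehydrogenase. Phosphoglycerate mutase 136599 stood at 24.7, 33.6 and 26.3 RPKM on glucose and at 8.73, 10.6 and 6.46 RPKM on pine (log2 change -1.62, SE 0.19). Phosphofructokinase 25177, the enzyme of the committed step of glycolysis, fell from 68.8, 28 and 36.4 RPKM to 20.8, 7.5 and 19.1 RPKM (log2 change -1.45, SE 0.37). Its call was lost without glucose replicate 1 (log2 change -1.09, adjusted p = 0.0605). None of 30 models of the tricarboxylic acid cycle and none of 64 of the respiratory chain was called by limma, with medians of -0.31 and -0.21. Without the fold threshold 5 and 7 of them were called lower. At an unadjusted p under 0.05 there were 12 (10 lower) and 16 (14 lower). In the tricarboxylic acid cycle 1 was called lower without pine replicate 1. In the respiratory chain 1 was called lower without pine replicate 1 or 3. There 1 was called higher without glucose replicate 3, aspen replicate 1 or 3 or Avicel replicate 3, and under median centring, quantile normalization, a pseudocount of 0.1, the replicate block or a fit of only the groups compared.

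Of 17 tested starch and glycogen enzymes, which build and break down storage glucans, 1 rose (2 without pine replicate 1) and 2 fell. The GH31 model 149294, of an alpha-glucosidase and alpha-xylosidase family, rose from 21.4, 20.4 and 16.5 RPKM to 124 ± 19.5 RPKM on pine (mean ± SD, n = 3; log2 change 2.61, SE 0.33). The family 35 glycosyl transferase 74282, the family of glycogen phosphorylase, fell from 1203, 1508 and 1010 RPKM to 479, 469 and 250.0 RPKM (log2 change -1.67, SE 0.28). It overlaps model 25634. In both models the pine and glucose libraries did not overlap. The GH13 model 73590, of the alpha-amylase family, fell by 1.48 (SE 0.31).

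Ribosomal proteins had a median of -0.56, with a positive log2 change in 7 of 116. None rose and 7 fell, and the number falling was 0 without glucose replicate 1 or pine replicate 2, 2 without glucose replicate 3 and 16 without pine replicate 1. It was 1 after median centring, 2 after quantile normalization, 4 with a pseudocount of 5 and 3 with no filter or with only the groups compared. Without the fold threshold 48 of the 116 were called lower and none higher, against 1724 lower of all 10112 models. At an unadjusted limma p under 0.05, 73 were lower and none higher. Their summed level was 46165 to 51368 RPKM on glucose and 27682 to 38815 RPKM on pine. Heat shock proteins and chaperones fell in 1 of 82 models and rose in none (median -0.19). Without pine replicate 1 or glucose replicate 2 the number falling was 3 or 2. Without the fold threshold 13 were called lower and 1 higher. At an unadjusted limma p under 0.05, 24 were lower and 4 higher. In that list 1 model was called higher without pine replicate 1 or 2 or aspen replicate 2 or 3, and under median centring, quantile normalization or the replicate block. No proteasome subunit of 19 was called by limma (3 lower at an unadjusted p under 0.05, 2 lower without the fold threshold, 1 without glucose replicate 3). In lipid metabolism 9 of 88 models rose (10.2%) and 5 fell (5.7%, near the 6.25% of all models). The number falling was 3 without pine replicate 2, with a pseudocount of 5 and after median centring or quantile normalization. Crotonase 94935, of a family that acts in fatty acid oxidation, rose by 3.04 (SE 0.64), while AMP-dependent synthetase 145952 fell from 807, 843 and 664 RPKM to 31.1, 15.3 and 42.6 RPKM (log2 change -4.76, SE 0.43). Among terpenoid and sterol synthesis models 3 of 47 rose and 3 fell (6.4% each way), near the shares of all models. Terpene synthase 120409 rose by 2.84 (SE 0.25) and terpenoid synthase 162429 fell by 2.94 (SE 0.30) on the log2 scale.

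Peptidases were called higher in 4 of 173 models (2.3%; 7 models after median centring) and lower in 8 (4.6%), against 5.65% and 6.25% of all models. Of 39 aspartic peptidases of family A1, 3 fell and 1 rose, with the share falling near that of all models. Peptidase 88607 stood at 5558, 5566 and 4081 RPKM on glucose and at 656, 326 and 554 RPKM on pine (log2 change -3.35, SE 0.31, adjusted p = 1.45e-05). Peptidase 22529, with a signal peptide, fell from 1079, 567 and 904 RPKM to 28.1, 24.4 and 15 RPKM (log2 change -5.17, SE 0.34). Both were high on Avicel, at 3442 to 4198 RPKM and 637 to 1117 RPKM. The riser of the family, 17250, changed by a log2 change of 2.78 (SE 0.24). The caspase-like family C14, named for enzymes of programmed cell death in animals, was counted apart. In it, 6 of 15 models fell and none rose, with 27737 going from 503, 336 and 381 RPKM to 86.9, 35.3 and 107 RPKM.

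Among families with at least 5 tested models, the highest shares of falling models were found for leucine-rich repeat proteins and ricin B-related lectins, with 5 of 10 lower in each, and interferon-inducible GTPase-like models, with 3 of 6. None of these rose. These families were picked by their counts, so the counts describe them and test nothing. Lectin 28640, of a fold that binds sugars, stood at 379, 419 and 325 RPKM on glucose and at 30.4, 21.6 and 27.9 RPKM on pine (log2 change -3.77, SE 0.24). Models with the Argonaute and Dicer PAZ domain, the small-RNA-binding fold of RNA silencing, fell in 3 of 7 cases, with 66747 going from 97.1, 157 and 74.7 RPKM to 23.4, 27 and 25.1 RPKM (log2 change -2.01, SE 0.25). Of 266 families with at least 5 tested models, 119 had no called member.

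Among regulators, transcription factor models rose in 9 of 222 (4.1%) and fell in 17 (7.7%), near the shares of all models (5.65% and 6.25%). The fungal regulatory protein 166519 rose from 15.6, 9.34 and 17.2 RPKM to 144, 275 and 212 RPKM (log2 change 3.80, SE 0.32). The C2H2 zinc finger 50037 fell from 690, 771 and 635 RPKM to 35.9, 13.7 and 97.3 RPKM (log2 change -4.21, SE 0.64), and 124482, of the same fold, fell by 3.96 (SE 0.70). GATA-type factor 133057, of the class that governs nitrogen use in other fungi, fell from 116, 52.8 and 102 RPKM to 16.6, 7.35 and 17.6 RPKM. Protein kinases rose in 8 of 212 and fell in 3, with 13 higher after quantile normalization and 14 with a pseudocount of 0.1. Without the fold threshold 21 kinases were called higher and 29 lower. Of 83 models for DNA replication, the cell cycle and histones 2 rose (1 without glucose replicate 3, with a pseudocount of 5 or with a filter at 5 RPKM), the cyclin-like model 163204 by a log2 change of 3.32 (SE 0.27), and 1 fell.

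Several of the most abundant models had no family label. Model 137127 led on pine, at 18198, 15446 and 26023 RPKM, and stood at 15204, 17423 and 16558 RPKM on glucose, with groups that overlap and no call. Model 75032 was the most abundant on glucose, at 20123, 29821 and 8808 RPKM, and fell to 830, 235 and 1846 RPKM on pine (log2 change -4.61, SE 0.76, adjusted p = 0.00106). Model 22946, with a signal peptide, rose from 2815, 2750 and 2753 RPKM to 9715, 9795 and 7936 RPKM (log2 change 1.72, SE 0.22). Model 167658 rose from 1244, 3362 and 448 RPKM to 15334, 4176 and 24059 RPKM (log2 change 3.23, SE 0.84), and its call was lost without glucose replicate 3 (adjusted p = 0.0624) or pine replicate 3 (0.0506).

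Pine and aspen were compared directly in the same fit to see where the 2 woods parted, and both were sequenced on lane 2. Only 17 models (0.168%) were called, 15 higher and 2 lower on pine. Since both comparisons use the pine cultures, their calls are not independent. The models called in both were taken up after their values were seen, and 4 of these 12 were P450s, which make up 1.75% of the tested models and 3.82% of those called against glucose. P450 24177 stood at 33.7, 62.6 and 79.9 RPKM on pine, 6.89, 5.95 and 7.62 RPKM on aspen and 1.92, 1.94 and 2.57 RPKM on glucose (pine over aspen log2 2.85, SE 0.29, adjusted p = 0.00257). P450 99035, from the same stretch of scaffold 3, was at 6.08, 16 and 9.30 RPKM on aspen (pine over aspen log2 3.16, SE 0.47, adjusted p = 0.0208). Another, 104855, was higher on pine than on both glucose and aspen (pine over aspen log2 1.89, SE 0.32, adjusted p = 0.0474). Its call against aspen was lost under 16 of the alternatives tried besides a fold of 4. P450 136784 went the other way, at 63.7, 64.3 and 38.3 RPKM on pine and 134, 168 and 168 RPKM on aspen (pine over aspen log2 -1.51, SE 0.21).

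Besides the P450s, the models called in both comparisons were of several families. The dihydrodipicolinate synthetase family model 104457, 1 of 4 tested models of its label and the only one of them called higher than on aspen, stood at 147, 101 and 88.8 RPKM on pine, 28.1, 30.6 and 23.3 RPKM on aspen and 4.05, 3.45 and 4.16 RPKM on glucose (pine over aspen log2 1.97, SE 0.19, adjusted p = 0.00257). The mandelate racemase family model 141280, 1 of 2 with that label, was at 140 ± 22.6 RPKM (mean ± SD, n = 3) on pine, 51.4, 63.3 and 40 RPKM on aspen and 10.1, 10.8 and 10.2 RPKM on glucose (log2 1.44, SE 0.17, adjusted p = 0.00816). The polygalacturonase family model 92023 stood at 13.9, 17.3 and 10.8 RPKM on pine and at 3.74 to 4.28 RPKM on aspen, the same level as on glucose (log2 1.58, SE 0.17, adjusted p = 0.00439). Sugar transporters 135536, 163632 and 146824 were 1.18, 1.40 and 1.05 higher on pine on the log2 scale (SE 0.18, 0.23 and 0.15). Among the rest, dienelactone hydrolase 141329 and the oxidoreductase 26576 differed from aspen by 1.96 (SE 0.33) and 1.07 (SE 0.18). The log2 ratio of pine to aspen was at least 1 in size for 103 of the 1203 models called against glucose (8.56%) and for 1.8% of all tested models. Among the large changes described above, cerato-platanin 72733 differed by -0.12 (SE 0.35), GH10 164484 by -0.01 (SE 0.79) and GH18 146767 by -0.38 (SE 0.25). P450 24176 differed by 1.9 (SE 0.51), cerato-platanin 101791 by 1.37 (SE 0.84), ferric reductase 109665 by -1.35 (SE 0.92) and peptidase 22529 by -1.67 (SE 0.34). None of these 7 was called between the woods, and a missed threshold does not show equal levels. With each library left out in turn, 24177, 104457, 141280 and 92023 kept their call, and the other 8 lost it in at least 1 case. With only the groups compared in the fit, 141280 and 92023 lost theirs as well. The total fell to 6, 6 and 4 models without aspen replicate 1, 2 and 3.

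**Figure D4:**
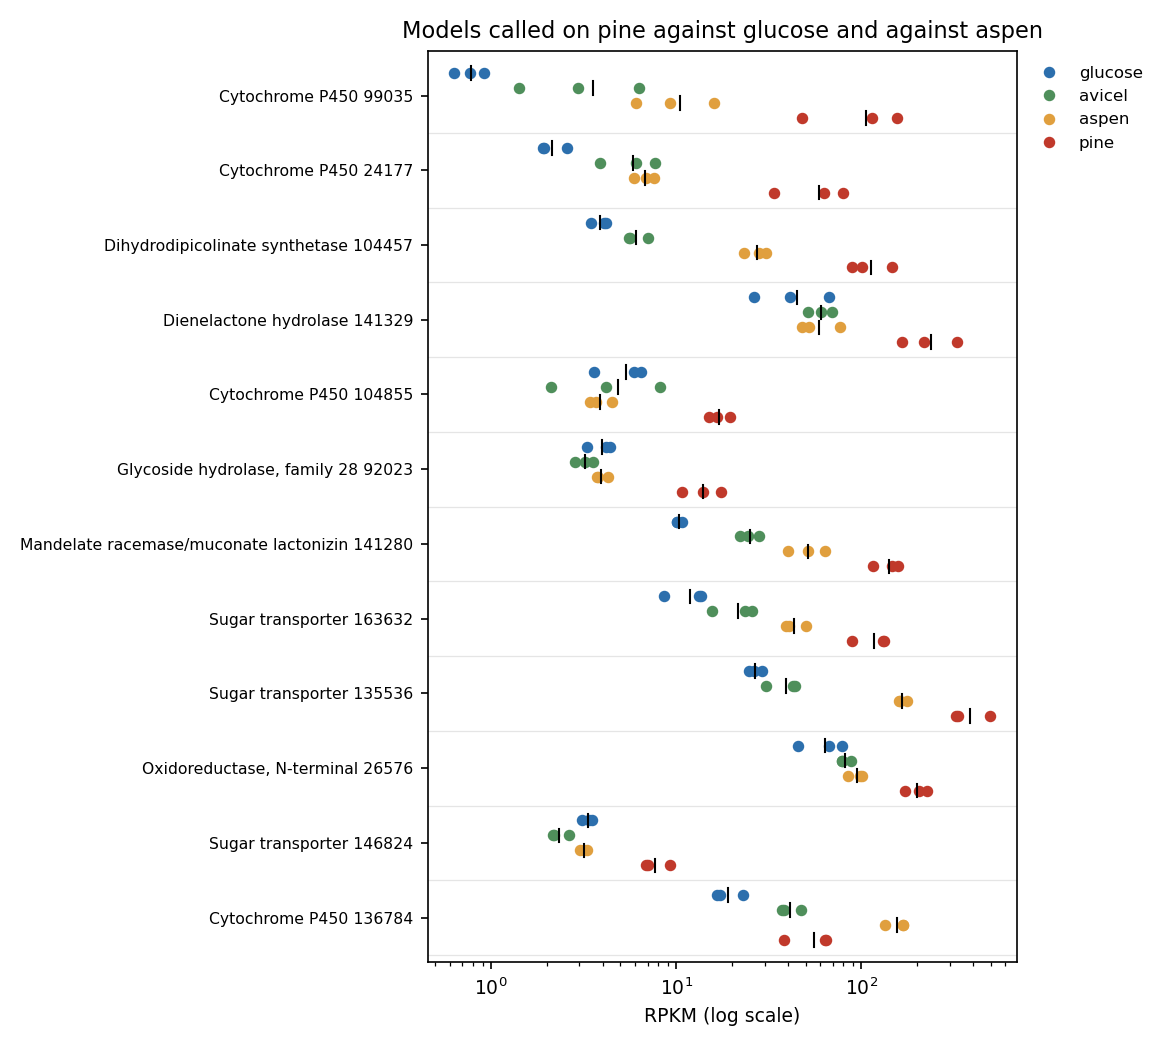
RPKM (log axis) in each of the 12 cultures for the 12 models called on pine against both glucose and aspen, ordered by their log2 pine over aspen from 3.16 down to -1.51. Colours mark the carbon source and black ticks the group means, and only P450 136784 lies lower on pine than on aspen.

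Protein data gave a second readout, 1 deposited emPAI score (a measure that grows with the share of a protein's peptides seen by mass spectrometry) per medium and no replicates, so no test was made. Of the 70 models with higher transcript on pine and a protein in either medium, 61 had the higher score on pine, and 39 of the 70 (55.7%) were seen on pine only, against 28.1% of all 590 tested models with a score. Of the 55 with lower transcript, 43 had the lower score on pine and 12 the higher. The scores summed to 458.6 in each medium, so they are relative to the other proteins of that medium. These counts include small differences that may reflect the scale alone. Ribosomal protein model 28524, for example, scored 0.606 on glucose and 0.519 on pine with 3 peptides in each. Over those 590 models, 331 had the higher score on pine. Chitinase family model 146767 scored 0 on glucose and 4.80 on pine, and GH10 models 164484 and 103638 went from 0.514 to 2.08 and from 0 to 1.64. The GH5 model 139561 and GH28 model 128405 were seen on pine only, at 0.599 and 0.452. Peptidase 22529 went from 12 to 0.846.

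Some models parted from their transcript. GH5 model 135575, whose RNA fell by 1.3 on the log2 scale, scored 0.233 on glucose and 1.11 on pine. Catalase 157451, with an RNA log2 change of -1.03 (call lost without glucose replicate 1 or 3 or pine replicate 3, adjusted p = 0.0532, 0.0842 and 0.0745), scored 0 on glucose and 1.72 on pine. Catalase 84844, by contrast, went from 3.09 to 1.26 with its RNA. GH12 model 24190 also fell in score with its RNA, from 15.5 on glucose, the highest there among the called models, to 8.98 on pine. Each of these scores rests on 2 peptides, and its RNA stood at 9.04 to 30.3 RPKM on pine.

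**Figure D5:**
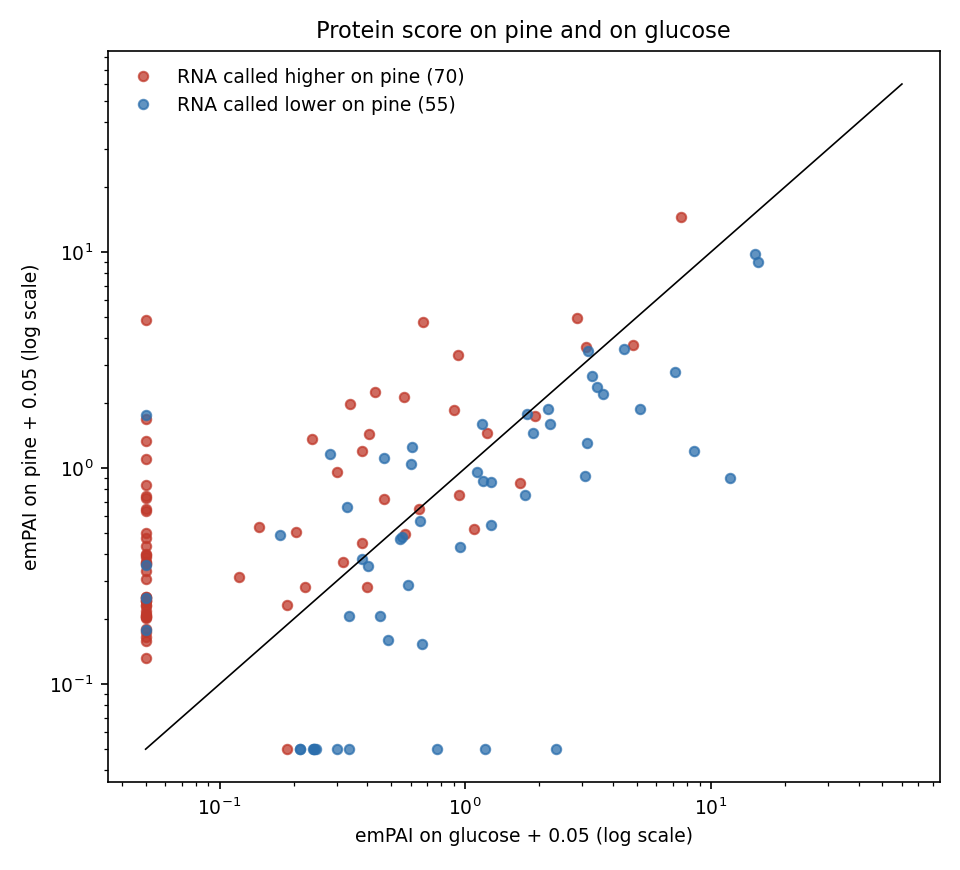
Deposited emPAI score on glucose (horizontal) and on pine (vertical), both plus 0.05 on log axes, for called models with a protein in either medium. Of the 70 models with higher RNA on pine (red) 61 lie above the line of equal score, and of the 55 with lower RNA (blue) 43 lie below it.

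Called models also sat side by side in the genome. On the scaffolds of the deposited table, 35 runs of at least 3 neighbouring tested models were all called in the same direction, 14 higher and 21 lower, with 114 models in all. No run was compared with chance. The longest held 6 models on scaffold 3 (1536074 to 1571128), all lower on pine, 5 without a label and the ricin B-related lectin 142889 at its end, which fell by 1.71 (SE 0.46). Without glucose replicate 2 or pine replicate 2 that lectin was not called (adjusted p = 0.0702 and 0.0664). On scaffold 2 (3852943 to 3863132), P450 models 97657, 64378 and 97658 and the aminopeptidase 88250 were lower together. Each of these P450s lost its call with a pseudocount of 5. Model 64378 stood at 4.5, 4.88 and 1.38 RPKM on glucose and 0, 0 and 0.330 RPKM on pine. It lies beside 97657 on the same strand (3853992 to 3854377, and 3852943 to 3853944). Whether they are parts of a single gene was not tested. A run of 4 on scaffold 27 (215789 to 229792) was higher and held the dienelactone hydrolase 141329, which stood at 217, 330 and 166 RPKM on pine and at 47.6, 77.1 and 52.4 RPKM on aspen.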

How the data were processed

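Poly-A RNA from 1 µg of total RNA per culture was sequenced as single reads of 100 nt, and the submitters' processing notes list CASAVA 1.8.2. The aligner, counter and genome build were not given in the sources used here, so positions are those of the deposited table. The authors deposited values per library that were taken as RPKM, a unit inferred from the values since no header names it. They also deposited their own p-value for pine against glucose, which was under 0.05 for 2558 of 10098 tested models and for 1110 of the 1197 called models that have one. As deposited, the protein values were an emPAI score per medium, and signal peptides had a probability given as a fraction. No sequence is printed because no reference was used here.

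Models with a mean of at least 1 RPKM on pine or glucose were tested with limma 3.58.1 (R 4.3.3). The values entered as log2(RPKM + 1), in a single 4-group fit over 12 libraries with an intensity trend and Benjamini-Hochberg adjustment. Fold changes are on this scale, which understates changes of low genes, and RPKM is relative to the whole library. On simulated data at least 94% of 50 planted changes per log2 size from 1.5 to 4 were recovered, with 4 false calls among the unchanged of 10112 models. Changes were planted only in models above a set mean level, with independent noise and no lane effect or library standing apart. These rates therefore do not carry over to low models, to smaller changes or to such effects. Tables were handled in Python 3.11.15.

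Gene lists were built from words in the InterPro labels, which name a family and not an activity. The members and lists were chosen with earlier results of these data known. Named genes were the most changed of all, per list and per family, the most abundant, those of the longest runs, those with protein, and all members of lists of up to 6. Models 24175, 136921, 136922, 150583, 68651 and 99038 and those called against both glucose and aspen were added after their values were seen. Alternatives covered pseudocount, filter, scaling, fit, block, threshold, prior and each library left out.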

Additional observations from a re-analysis of the deposited data

Results flagged for a closer look

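The direct comparison of the 2 woods differed from 0 for 12 models that were also called on pine against glucose, so pine and aspen differ from glucose by unequal amounts there. The log2 ratio of pine to aspen was 3.16 for P450 99035, 2.85 for P450 24177, 1.89 for P450 104855 and -1.51 for P450 136784. It was 1.97 for the dihydrodipicolinate synthetase family model 104457, 1.44 for the mandelate racemase family model 141280 and 1.58 for GH28 model 92023. Sugar transporters 135536, 163632 and 146824 gave 1.18, 1.4 and 1.05, dienelactone hydrolase 141329 gave 1.96 and oxidoreductase 26576 gave 1.07. The adjusted p from limma ranged from 0.00257 to 0.0498, over 10112 models. All 12 are drawn from a comparison in which 0.168% of models were called. Besides a fold of 4, models 26576, 104855, 141329 and 163632 lost their call under 19, 16, 15 and 12 of the alternatives tried. Only 24177 and 104457 kept it under all of these. Groups of 3 libraries are too small for a test of single outlying samples.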

How the results depend on the processing

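Pine against glucose gave 1203 called models, 571 higher and 632 lower. Without the fold threshold there were 2743 (1019 and 1724), at a fold of 4 there were 403 (235 and 168), and with a pseudocount of 5 RPKM 410 were lower. Leaving out 1 library gave 1073 to 1275 called, 533 to 581 higher and 506 to 700 lower. The share of calls that were higher was 47.5%, and 55% after both median centring (648 higher, 530 lower) and quantile normalization (661 and 540). The remaining settings kept each count within 1.5 times. With the replicate block 583 were higher and 648 lower. Same-numbered glucose and pine libraries correlated at 0.31, 0.233 and -0.15 in their deviations from the group means, so these were not treated as pairs. Same-numbered pine and aspen libraries correlated at 0.006, 0.151 and 0.44, and the main fit did not pair them either. The replicate block, shared by all 4 groups, gave 21 models called between pine and aspen (16 higher, 5 lower). A pairing of the 2 woods alone was not tested. Of 195 named called models, 144 kept the call under every setting except a fold of 4, and none changed direction. Pine against aspen (17 called) fell to 5 with no filter, 9 with only the groups compared and 2 at a fold of 4, and ran from 4 to 23 with a library left out. With 3 cultures per group, and each carbon source confined to a single lane, the causes of these shifts were not tested.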
